A study of Rattus norvegicus with 5 samples.

Results

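Kinesin motor genes were taken as every gene symbol made of Kif followed by a number that the peak annotation placed at a promoter, within 2 kb of a gene, in an exon, in an intron or in a gene body. The rule found 34 symbols among the 23553 symbols named in any of 9 region lists, which were 3 lists of peaks over input and 6 lists of regions that differed between cell types. One of the 34, Kif1bp, is an older name of Kifbp, a protein that binds kinesins and is not itself a motor. The regions came from rat genomic DNA that was sonicated, denatured, enriched with an antibody against N6-methyladenine (6mA) and sequenced. NSCs were neural stem cells of the line SCR022, and the other groups are labelled only as Neurons and Astrocytes, with no genotype, treatment, time or age given. Each of the 3 cell types had 1 immunoprecipitated library, and the samples also held 1 input library each for NSCs and Neurons. The Astrocyte peak list names an input too, but no Astrocyte input is among the samples used here, so the Astrocyte folds over input rest on a library that was not analysed here. Sequencing depth lay between 15760246 and 16095308 reads for the immunoprecipitated libraries, and was 27936774 for the NSC input and 22329441 for the Neuron input. With 1 library per cell type, no value could be set against a spread between replicates and no test was made. DNA was measured and not RNA, so the labels could not be checked against marker expression, and no second method was at hand to check that an enriched region holds 6mA.

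Kinesins are motor proteins that use ATP to step along microtubules. Some carry vesicles, mitochondria and receptors along axons and dendrites, some build and maintain cilia, and others trim microtubule ends or move chromosomes and spindle poles in dividing cells. A dividing neural stem cell relies on the spindle motors, whereas a neuron, which no longer divides, relies on the transport motors to supply its long processes. In DNA, 6mA is a methyl group on adenine, and its abundance in mammalian genomes is debated.

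Few kinesin peaks lay at promoters. The lists named a kinesin promoter in 1 of 131 kinesin peaks in NSCs (0.763%), 4 of 157 in Neurons (2.55%) and 3 of 137 in Astrocytes (2.19%), where the share over all peaks with a gene name was 7.84%, 8.29% and 7.79%. The latter shares are not weighted to gene length, so the difference is not read as particular to kinesins. Kif6 and Kif26b, of 297 and 406 kb, held 33.6%, 38.9% and 38.7% of the kinesin peaks and none at a promoter. Whether gene length accounts for the low promoter share was not tested. The 6 genes were Kif13a, Kif9, Kif1a, Kif19, Kif2b and Kif3a, and the promoters of 4 of them are shown because they are the start sites to which the annotation tied a peak. Each sequence runs 5′ to 3′ from 250 bases before to 50 bases after the gene's start in RefSeq's GRCr8 assembly. The windows are chr17:17972603-17972902 on the plus strand for Kif13a, chr8:119337849-119338148 on the plus strand for Kif9, chr9:101094728-101095027 on the minus strand for Kif1a and chr10:38226520-38226819 on the plus strand for Kif3a. The sources used here do not give the build of the peak files, so the peaks were not placed inside these windows. Capitals mark, on either strand, the pentamer GAGGC or, with another last base, GAGGT, and likewise the pentamer CAGGC or, with another last base, CAGGT. These are the spellings of a motif reported for 6mA in human DNA.
Kif13a: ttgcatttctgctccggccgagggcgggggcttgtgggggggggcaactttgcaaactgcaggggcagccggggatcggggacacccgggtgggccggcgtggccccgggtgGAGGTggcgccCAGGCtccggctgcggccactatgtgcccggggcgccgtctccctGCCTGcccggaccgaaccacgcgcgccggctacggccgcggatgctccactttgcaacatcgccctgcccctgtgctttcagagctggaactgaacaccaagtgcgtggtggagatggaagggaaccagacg
Kif9: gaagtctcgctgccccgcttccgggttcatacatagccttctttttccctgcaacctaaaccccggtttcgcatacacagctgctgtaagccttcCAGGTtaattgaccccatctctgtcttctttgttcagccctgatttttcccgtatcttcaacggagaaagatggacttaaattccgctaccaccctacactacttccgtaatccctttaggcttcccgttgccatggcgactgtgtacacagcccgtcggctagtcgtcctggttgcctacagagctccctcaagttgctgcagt
Kif1a: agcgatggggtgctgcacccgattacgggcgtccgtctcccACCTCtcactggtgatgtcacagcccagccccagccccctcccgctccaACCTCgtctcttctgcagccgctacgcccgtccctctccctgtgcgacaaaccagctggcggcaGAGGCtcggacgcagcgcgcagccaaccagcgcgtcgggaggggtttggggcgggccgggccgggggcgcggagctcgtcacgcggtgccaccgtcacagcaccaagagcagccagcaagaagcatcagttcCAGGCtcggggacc
Kif3a: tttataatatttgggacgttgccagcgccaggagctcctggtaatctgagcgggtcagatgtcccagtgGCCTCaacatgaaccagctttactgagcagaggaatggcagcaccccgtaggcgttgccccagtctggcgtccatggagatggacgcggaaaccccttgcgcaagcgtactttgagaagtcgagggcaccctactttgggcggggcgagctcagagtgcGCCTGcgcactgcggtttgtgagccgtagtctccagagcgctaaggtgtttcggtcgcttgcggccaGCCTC

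The Kif13a window held 3 of these pentamers, that of Kif9 held 1, that of Kif1a 4 and that of Kif3a 3. Such matches are common. Of 33469 RefSeq promoters of the same length, 93.9% held at least 1 of the 4 pentamers, with a median of 3 matches, and the single pentamers were in 60.0% (GAGGC), 48.7% (GAGGT), 60.7% (CAGGC) and 48.8% (CAGGT). GATC, the site of a bacterial adenine methylase, was in the Kif13a window once, in none of the other 3, and in 46.9% of all promoters. The 4 windows were rich in CpG, with 27 in Kif13a, 14 in Kif9, 29 in Kif1a and 21 in Kif3a, where the median over all promoters was 7. A match of letters is a description of the window and not a methylated site. RefSeq promoter entries were matched for 26 of the 34 symbols.

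Folds over input at these promoters lay between 8.01 and 19.3, and positions below are as the deposited lists give them. All folds, scores and peak positions are the authors' own. At Kif13a, a motor that carries receptor-bearing vesicles, the promoter peak had a fold of 19.3 in Neurons (chr17:18149810-18150255) and 14.4 in Astrocytes (chr17:18149810-18150259), and NSCs had no peak there. At Kif9, a motor of cilia and flagella, the promoter peak also stood in Neurons (chr8:118741987-118742283, fold 11.0) and in Astrocytes (chr8:118741903-118742379, fold 9.67) and not in NSCs. Kif1a, which carries synaptic vesicle precursors, had a promoter peak in Neurons alone (chr9:100255244-100255826, fold 9.45), in a record that also names Ppp1r7. Kif3a, a subunit of the heterotrimeric motor of cilia, had one in NSCs alone (chr10:38917530-38917927, fold 8.01). Kif19, a motor that limits cilium length, had one in Neurons (chr10:103306752-103307129, fold 8.48), and Kif2b, a spindle depolymerase, had one in Astrocytes (chr10:79098499-79098929, fold 13.6). The peaks at Kif13a, Kif19 and Kif3a lay in CpG island shores, and no kinesin peak of the 3 input-based lists lay in a CpG island. Shares of islands and shores over all peaks were not taken, so this is a description and not a trait of kinesin genes.

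Most kinesin genes carried peaks in every cell type. A peak over input was listed at 27 kinesin genes in NSCs, 28 in Neurons and 27 in Astrocytes. Set on the 41 kinesin genes of the reference, these are 65.9%, 68.3% and 65.9%, where 45.6%, 49.1% and 45.8% of all 20949 named protein-coding genes had a peak. The genes with a peak in all 3 cell types numbered 24. The like share over all genes was not taken, so this count is not read as particular to kinesins. Kif21b had peaks in NSCs and Neurons, and Kif24 in NSCs and Astrocytes. Kif18a, Kif19 and Kif1bp had a peak in Neurons alone, Kif2b and Kif5b in Astrocytes alone, and Kif2c in NSCs alone. Kif22 and Kif7 had no peak over input and entered through 1 region each that was listed as higher in Neurons than in NSCs. The reference holds 7 further kinesin genes that no list names, which are Kif12, Kif17, Kif18b, Kif19b, Kif20a, Kif26a and Kif27l1. A gene that is not listed had no region past the authors' score of 50.0, which corresponds to a p of 1e-05, and this does not show that its DNA was not enriched.

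**Figure D1:**
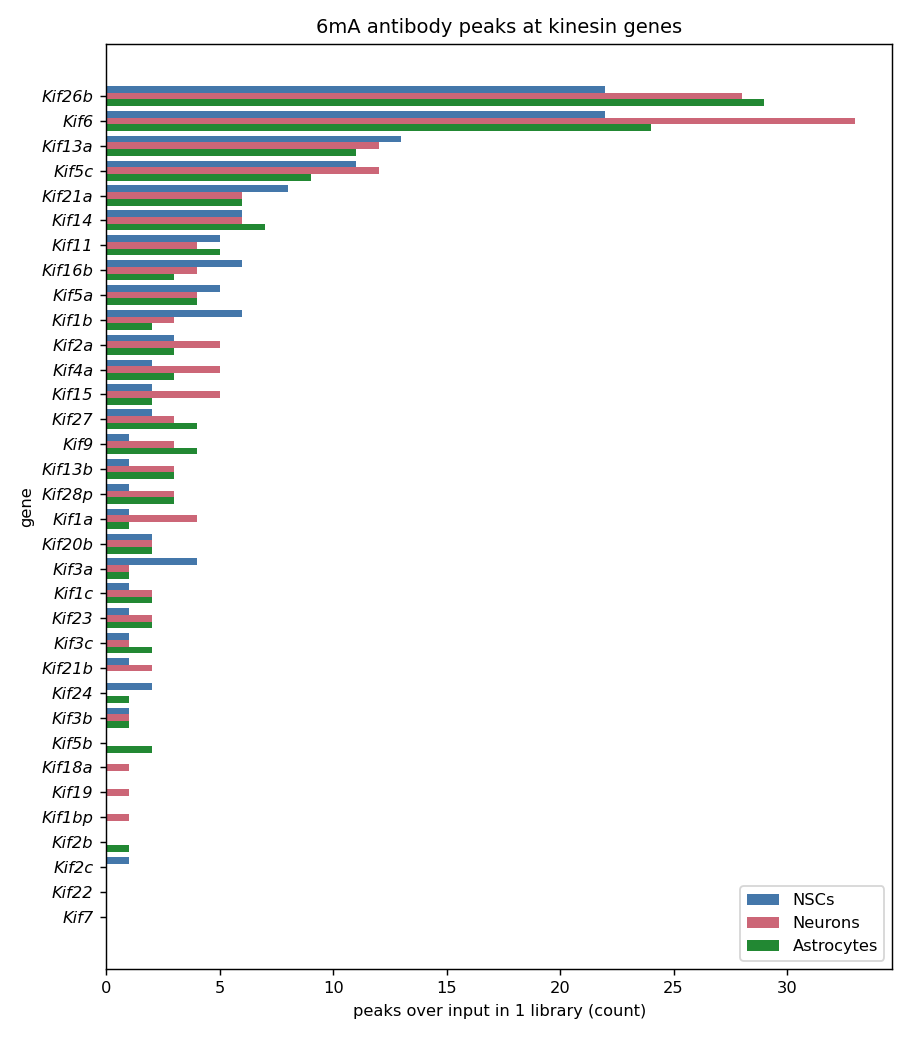
Number of 6mA antibody peaks over input (x axis, count) at each of the 34 kinesin genes (y axis), with 1 bar per cell type and 1 library per bar. Kif26b and Kif6 stand apart with 22 to 33 peaks each, and Kif22 and Kif7 have none.

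The share of kinesin genes with a peak followed gene length. Long genes offer more DNA in which a peak can fall, and kinesin genes were therefore set beside genes of the same length. Among kinesin genes of 20 to 50 kb, 8 of 14 had a peak in NSCs, 8 of 14 in Neurons and 7 of 14 in Astrocytes, where the shares over all genes of that length were 59.0%, 63.9% and 58.8%. At 50 to 100 kb, 10 of 12 had a peak in each cell type, beside 79.9%, 84.2% and 80.3%. All 6 of 100 to 200 kb and all 3 over 200 kb had a peak in each cell type, where between 90.1% and 93.3% of all such genes did. Under 20 kb, 0 of 6 had a peak in NSCs, 1 in Neurons and 1 in Astrocytes, beside 22.1%, 25.5% and 22.4%. Weighted to the lengths of the 41 kinesin genes, the share over all genes was 66.8% in NSCs, 70.3% in Neurons and 66.9% in Astrocytes. The kinesin shares of 65.9%, 68.3% and 65.9% thus lay near the background, and their excess over the unweighted shares is not a result about kinesins. The 6 short genes were Kif12, Kif20a, Kif22, Kif27l1, Kif2b and Kifbp.

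**Figure D2:**
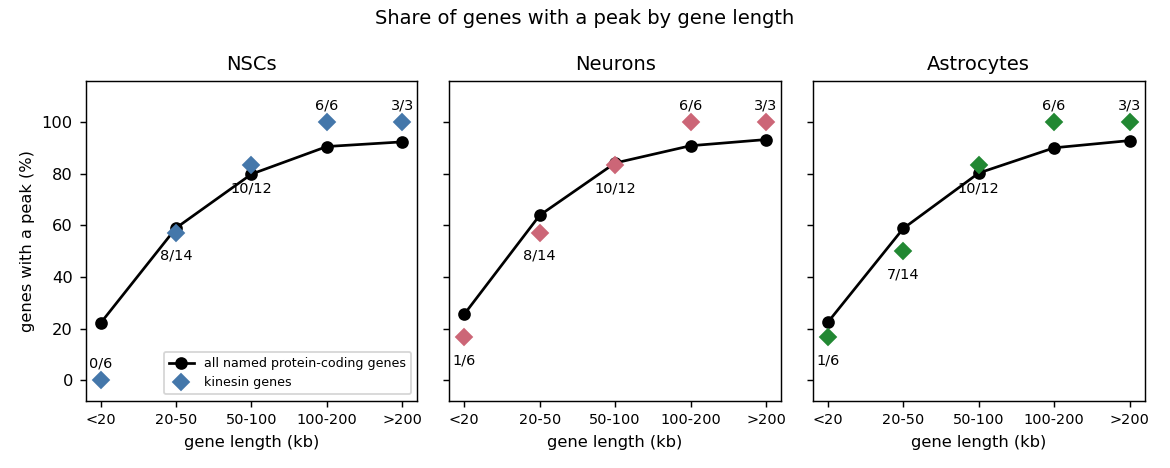
Share of genes with a peak (y axis, percent) by gene length (x axis, kb) in NSCs, Neurons and Astrocytes. Black points are all named protein-coding genes, diamonds are kinesin genes with their counts, and both rise with length, with 10/12 beside 79.9% at 50 to 100 kb in NSCs.

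A pair of large genes held a large share of the kinesin peaks. Kif6, a motor needed for ependymal cilia, had 22 peaks in NSCs, 33 in Neurons and 24 in Astrocytes over 297 kb. Kif26b, an unconventional kinesin of kidney development, had 22, 28 and 29 over 406 kb. Together these were 33.6%, 38.9% and 38.7% of the kinesin peaks in NSCs, Neurons and Astrocytes. Per length, Kif6 reached 11.1 peaks per 100 kb in Neurons, and 5 of 1065 genes over 200 kb (0.469%) were denser, where the median of that class was 3.71. In Astrocytes it had 8.08 per 100 kb with 28 genes denser, and in NSCs 7.41 with 48 denser. Kif26b had 5.42, 6.90 and 7.15 per 100 kb in NSCs, Neurons and Astrocytes, with 171, 111 and 53 genes of that class denser.

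The largest folds over input also fell in these genes and in 5 others. In NSCs the 5 genes with the largest folds were Kif13a (44.5), Kif6 (43.2), Kif26b (38.9), Kif14 (36.0) and Kif28p (30.8). Kif14 works in the last step of cell division, and Kif28p belongs to the same kinesin-3 family as Kif13a. In Neurons the leaders were Kif26b (54.3), Kif13a (50.7), Kif14 (49.5), Kif28p (45.7) and Kif6 (44.3). In Astrocytes they were Kif6 (74.2), Kif26b (65.4), Kif14 (38.6), Kif3c (35.6) and Kif20b (34.4), the last a motor of cytokinesis. Folds of different cell types come from separate lists and are given side by side without a comparison. The median kinesin peak was close to the median peak with a gene name, with folds of 12.5 beside 12.3 in NSCs, 12.1 beside 12.1 in Neurons and 13.3 beside 12.4 in Astrocytes. Their median widths were 489, 468 and 480 bp, beside 475, 465 and 455 bp.

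Introns held nearly all of these peaks. A kinesin intron and no other class was named for 120 of 131 peaks in NSCs, 143 of 157 in Neurons and 124 of 137 in Astrocytes. The like share over all peaks with a gene name was not taken, so these counts are not read as particular to kinesins. Exons were named in 9, 9 and 8 peaks, or 6.87%, 5.73% and 5.84%, where the share over all peaks with a gene name was 7.36%, 7.91% and 7.45%. The exon peaks lay in Kif5a, Kif6, Kif21a, Kif20b, Kif23 and Kif3a, and in 1 cell type each in Kif15 (Neurons, fold 13.0), Kif1a (Neurons, 8.21), Kif2a (NSCs, 9.21), Kif2c (NSCs, 16.8) and Kif3c (Astrocytes, 8.91). Every exon peak but that of Kif3c also reached into an intron.

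The conventional kinesins Kif5a, Kif5b and Kif5c are heavy chains of the motor that carries mitochondria and vesicles down the axon, and the 3 genes differed in their patterns. Kif5a, the form typical of neurons, spans 37.1 kb and was densely covered, with 5 peaks in NSCs, 4 in Neurons and 4 in Astrocytes. That was 13.5, 10.8 and 10.8 peaks per 100 kb, the highest kinesin density in NSCs, and 117, 349 and 263 of 4787 genes of 20 to 50 kb were denser. The NSC count of 5 includes 2 peaks on the broad site given below, where Neurons and Astrocytes have 1 each. Counted by site, NSCs hold 4 as well, the number that gives 10.8 per 100 kb, and Kif3a then stands above it in NSCs at 10.9. All 4 of its sites, each a merged stretch of overlapping peaks, were found in all 3 cell types. A broad site at chr7:70517859-70520882, over exon and intron, held 1 peak of 2769 bp with a fold of 30.0 in Neurons and 1 of 2493 bp with a fold of 28.9 in Astrocytes. In NSCs the same stretch was covered by 2 peaks with folds of 9.79 and 10.1. This stretch was listed as higher in Neurons than in NSCs in the authors' deposited table, with a fold of 4.21, and as higher in Astrocytes than in NSCs, with 5.24. Further along the gene, a site went the other way. At chr7:70547492-70548349, in an intron, the fold over input was 18.9 in NSCs, 7.33 in Neurons and 9.43 in Astrocytes. It was listed as higher in NSCs in the authors' deposited tables, with folds of 6.71 over Neurons and 5.06 over Astrocytes. Both comparisons share the NSC library.

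Kif5b, the form present in most tissues, is of nearly the same length (37.6 kb) and had no peak in NSCs or Neurons. Astrocytes had an intron peak at chr17:54192459-54192806 with a fold of 25.45 and one downstream of the gene at chr17:54212786-54213183 with a fold of 12.2. Both were listed as higher in Astrocytes than in NSCs in the authors' deposited table, with folds of 11.9 and 14.6. The authors' deposited table for Astrocytes against Neurons lists them at 7.44 and 11.75, and the Astrocyte library is common to both comparisons.

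Kif5c, another neuronal form, had 11 peaks in NSCs, 12 in Neurons and 9 in Astrocytes, on 19 sites of which 4 were found in all 3 cell types. Its tallest peak stood in an intron at chr3:35058469-35058982, with a fold of 42.2 in Neurons and 22.9 in Astrocytes, and NSCs had none. In the comparison of Neurons with NSCs this site had the largest kinesin fold of the authors' deposited table, 17.7, and was also listed at 6.87 for Neurons over Astrocytes and 8.00 for Astrocytes over NSCs. A site near the far end, at chr3:35186452-35186924, had folds of 20.1 in NSCs and 12.8 in Neurons and no Astrocyte peak. The authors' deposited tables list it at 19.9 for NSCs over Astrocytes and 13.0 for Neurons over Astrocytes.

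**Figure D3:**
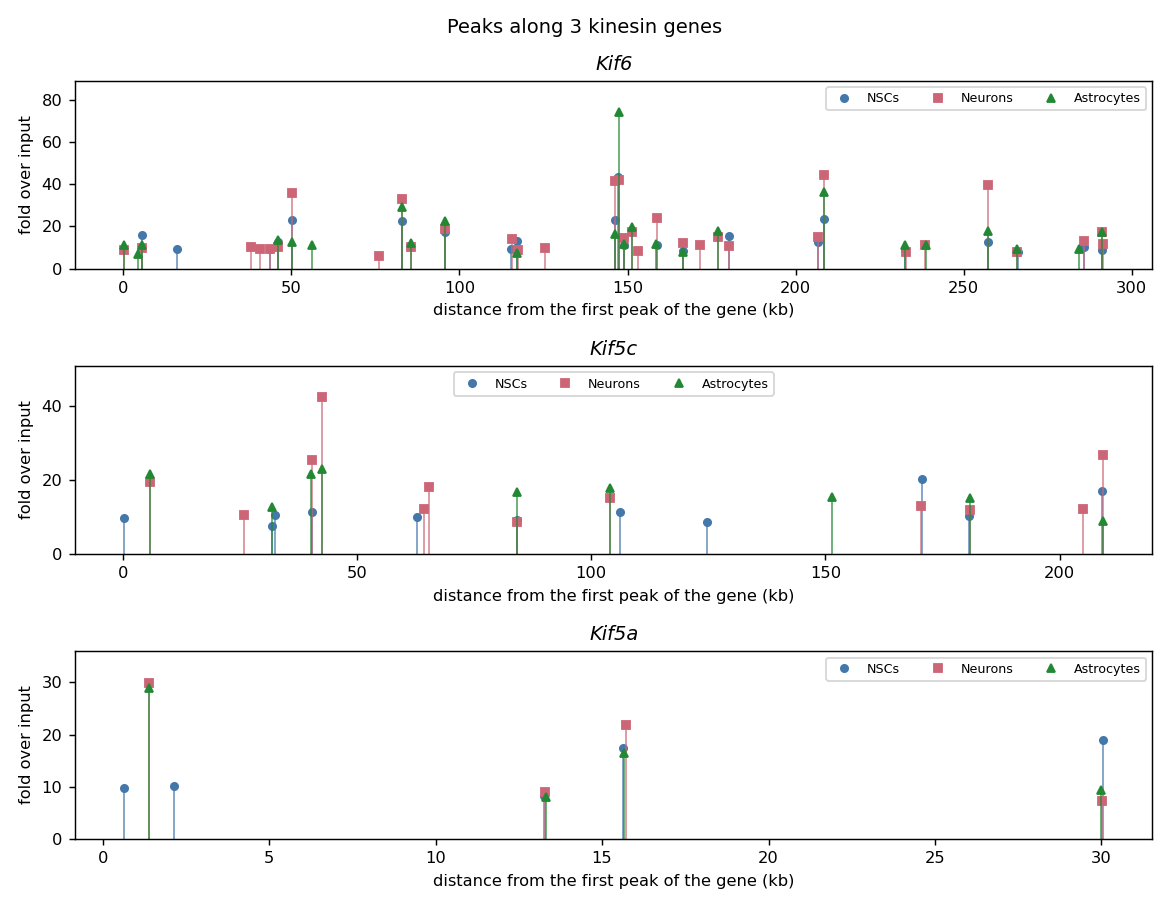
Authors' fold over input (y axis) of each peak along Kif6, Kif5c and Kif5a, by distance from the first peak of the gene (x axis, kb), with 1 marker per peak and cell type. In Kif5a the leftmost stretch reaches 30.0 in Neurons and 28.9 in Astrocytes above 2 NSC peaks of 9.79 and 10.1, while the rightmost site is tallest in NSCs at 18.9.

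Kinesin-2 motors run along cilia and axons. Kif3a had 4 peaks in NSCs, or 10.9 per 100 kb with 240 of 4787 genes of its length class denser, and 1 peak each in Neurons and Astrocytes. No Kif3a site was found in all 3 cell types. Its promoter region was listed as higher in NSCs than in Astrocytes in the authors' deposited table, with a fold of 9.28. Kif3b, its usual partner, had a single intron site with folds of 17.95 in NSCs, 23.0 in Neurons and 20.1 in Astrocytes, and no comparison list named it. Kif3c, a neuronal partner of Kif3a, had an intron site with folds of 12.2 in NSCs, 11.9 in Neurons and 35.6 in Astrocytes. The Kif3c site, at chr6:27780777-27781324, was listed at 8.74 for Astrocytes over NSCs in the authors' deposited table. Kif17, a dendritic motor for glutamate receptors, was in no list.

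Kinesin-3 motors are long-range carriers of vesicles. Kif1a had 1 peak in NSCs, 4 in Neurons and 1 in Astrocytes, and none of its 5 sites was found in all 3 cell types. Its exon peak at chr9:100205008-100205543 and its promoter peak were listed as higher in Neurons than in NSCs in the authors' deposited table, with folds of 9.12 and 10.2. All Kif1a records also name Ppp1r7, so they cannot be given to Kif1a alone. Kif1b, a carrier of mitochondria and synaptic vesicle precursors, had 6 peaks in NSCs, 3 in Neurons and 2 in Astrocytes. The one Kif1b site found in all 3 cell types had folds of 17.6, 32.6 and 22.7, and 5 of its 9 sites were in NSCs only. Of these 5, only that at chr5:166007371-166007772 overlapped a comparison region, listed as higher in NSCs than in Astrocytes. Kif1c had 1, 2 and 2 peaks, and its main site had folds of 19.95 in NSCs, 31.7 in Neurons and 25.55 in Astrocytes. No comparison list named Kif1c.

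Kif13a held 13 peaks in NSCs, 12 in Neurons and 11 in Astrocytes. Among 17 Kif13a sites, 8 were found in all 3 cell types. Its tallest shared site, at chr17:18303352-18304417, had folds of 44.5, 50.7 and 31.2 in NSCs, Neurons and Astrocytes. The Kif13a promoter was listed as higher in Neurons than in NSCs in the authors' deposited table, with a fold of 8.09. In that comparison 3 Kif13a regions were higher in Neurons, the promoter among them, and 1 was higher in NSCs. Between Astrocytes and NSCs, 1 was higher in Astrocytes and 4 in NSCs. Kif13b, a motor that binds a discs-large scaffold protein, had 1 peak in NSCs, 3 in Neurons and 3 in Astrocytes, and 1 intron site with folds of 27.8, 32.3 and 21.3 was common to all. In the Neuron and NSC comparison Kif13b had 3 regions higher in Neurons and none higher in NSCs, with folds of 16.0, 11.7 and 10.2 in the authors' deposited table. Kif16b, which moves early endosomes, had 6, 4 and 3 peaks on 10 sites, of which 1 was found in all 3 cell types. It had 3 regions higher in NSCs than in Neurons (13.6, 9.87 and 7.30) and none higher in Neurons in the authors' deposited tables. Kif28p had 1, 3 and 3 peaks, and a single intron site at chr13:97992072-97993160 carried its largest folds, 30.8, 45.7 and 28.8. At Kif14, which had 6, 6 and 7 peaks over 63.6 kb, 5 of 8 sites were found in all 3 cell types, and only 112, 146 and 38 of 2484 genes of 50 to 100 kb were denser.

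Kif21a and Kif21b restrain the growth of microtubule ends, and Kif21a is mutated in an inherited eye movement disorder. Kif21a had 8 peaks in NSCs, 6 in Neurons and 6 in Astrocytes, on 10 sites of which 4 were found in all 3. An exon site at chr7:132106892-132107944 was one of these, with folds of 16.5 in NSCs, 24.2 in Neurons and 24.3 in Astrocytes. The NSC peak of that site was listed in an intron only. Kif21b had 1 peak in NSCs and 2 in Neurons, at different places, and none in Astrocytes. Its NSC peak at chr13:53017849-53018418 (fold over input 10.1) was listed at 12.6 for NSCs over Neurons and 13.2 for NSCs over Astrocytes in the authors' deposited tables. Kif21b had 3 regions higher in NSCs and none in the opposite direction in each of these comparisons, which share the NSC library. Kif7 regulates hedgehog signalling in cilia, and Kif27 is its close relative. Kif27 had 2, 3 and 4 peaks, and its region at chr17:6733405-6733795 had a fold of 19.9 for NSCs over Astrocytes in the authors' deposited table, the largest of a kinesin there together with that of Kif5c. The single Kif7 region is listed in the authors' deposited table at a fold of 8.82, higher in Neurons than in NSCs.

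At Kif6, more regions were listed as higher in Neurons than as lower. Of its 37 sites, 16 were found in all 3 cell types, 7 in Neurons only, 3 in Astrocytes only and 1 in NSCs only. Its tallest shared site, at chr9:13164634-13165894, had folds of 43.2 in NSCs, 41.8 in Neurons and 74.2 in Astrocytes. Between Neurons and NSCs, 9 Kif6 regions were higher in Neurons and 1 in NSCs, with folds of 5.95 to 13.6 for those higher in Neurons in the authors' deposited table. Against Astrocytes, 7 were higher in Neurons and none was higher in Astrocytes, with folds of 5.57 to 12.2 in the authors' deposited table. Between Astrocytes and NSCs the Kif6 regions stood at 5 and 6. Over all regions with a gene name, 54.8% were higher in Neurons against NSCs and 42.0% were higher in Astrocytes against NSCs. Between Astrocytes and Neurons, 6824 of all such regions were higher in Astrocytes and 16110 in Neurons. The comparisons of Neurons with NSCs and with Astrocytes share the Neuron library, and the Kif6 region at chr9:13274883-13275582 is listed in both. At Kif26b 11 of 45 sites were found in all 3 cell types, and its regions ran 6 to 6 between Neurons and NSCs, 6 to 2 in favour of Astrocytes over NSCs and 7 to 4 in favour of Astrocytes over Neurons. The Kif26b site at chr13:96812577-96813769 had folds of 37.7, 54.3 and 38.4 in NSCs, Neurons and Astrocytes. Kif9 had 1, 3 and 4 peaks, and its region at chr8:118747279-118747831 was listed at 12.2 for Astrocytes over NSCs and 9.45 for Astrocytes over Neurons in the authors' deposited tables.

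Kinesins of the spindle and of cell division were described as a group beside the transport kinesins. The 13 such genes of the reference, 616 kb in sum, held 21, 25 and 23 peaks in NSCs, Neurons and Astrocytes, or 3.41, 4.06 and 3.74 per 100 kb. The 25 transport and growth genes, 2479 kb in sum, held 110, 131 and 114, or 4.44, 5.28 and 4.60 per 100 kb. Kif6 and Kif26b are among them, and without this pair the other 23, 1777 kb in sum, held 66, 70 and 61 peaks, or 3.71, 3.94 and 3.43 per 100 kb. Without the pair the transport genes were denser than the division genes in NSCs only, and in Neurons and Astrocytes the order turned. The pair was left out after the data were seen and from the transport list only. Kif14, with 9.43, 9.43 and 11.0 per 100 kb, stayed in the division list. The transport list also holds kinesins of cilia and signalling, such as Kif9, Kif19, Kif27 and Kif7, and the division list holds Kif24. Neither order therefore sets transport alone against division. The summed lengths are reference lengths, and that of Kif5c (150.4 kb) is shorter than the span of its peaks (209.8 kb). Taking that span would lower the transport densities. Over all named protein-coding genes the density was 3.46, 3.99 and 3.40 peaks per 100 kb. Kif11, the motor that pushes spindle poles apart, had 5, 4 and 5 peaks, with 3 of 7 sites in all 3 cell types. Its 4 entries in the comparison lists, all higher in NSCs, had folds of 8.92 to 9.87 in the authors' deposited tables. They stand for 3 places, since chr1:256071362-256071672 is listed against both Neurons and Astrocytes, and the 2 comparisons share the NSC library. Kif15, which backs up Kif11, had 2, 5 and 2 peaks. Kif4a, a motor of chromosome arms on the X chromosome, had 2, 5 and 3, and its shared site had folds of 12.35, 29.0 and 17.75. Both Kif20b sites were found in all 3 cell types, and the exon site had folds of 23.5 in NSCs, 16.5 in Neurons and 34.4 in Astrocytes. The Astrocyte peak of that site was listed in an intron only. Kif23, the central spindle motor, had 1, 2 and 2 peaks and no site common to all. Kif18a, which aligns chromosomes, had 1 Neuron peak with a fold of 10.9, and the single Kif22 region, higher in Neurons than in NSCs, has a fold of 9.87 in the authors' deposited table.

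Kinesin-13 motors do not walk but strip subunits from microtubule ends. Kif2a, which trims axon branches, had 3 peaks in NSCs, 5 in Neurons and 3 in Astrocytes, and 1 of its 8 sites was found in all 3. Against Astrocytes it had 5 regions higher in Neurons and 1 higher in Astrocytes, with folds of 7.80 to 13.0 for those higher in Neurons in the authors' deposited table. Kif2c, which corrects faulty chromosome attachments, had a single exon peak at chr5:136035161-136035460, in NSCs, with a fold of 16.8. The same region was listed at 10.5 for NSCs over Neurons and 13.4 for NSCs over Astrocytes in the authors' deposited tables. Kif24, which holds back cilium formation, had 2 peaks in NSCs, 1 in Astrocytes and none in Neurons, with folds of 7.48 to 10.1. Kif1bp had 1 Neuron peak, with a fold of 11.7, listed at 12.0 for Neurons over Astrocytes in the authors' deposited table.

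Kinesin peaks overlapped between cell types at shares close to those over all genes. An overlap of 1 bp or more counted as sharing, and intervals are exact Clopper-Pearson 95% intervals that cover counting error only. They treat peaks as independent, although peaks of 1 gene in 1 library are not replicates. Kif6 and Kif26b alone held 33.6% to 38.9% of the kinesin peaks per cell type. Of the NSC kinesin peaks, 53.4% (44.5 to 62.2) overlapped a peak in both other cell types, beside 46.1% of all NSC peaks with a gene name. For Neurons the share was 43.9% (36.0 to 52.1) beside 40.0%, and for Astrocytes 50.4% (41.7 to 59.0) beside 47.3%. Each of the 3 intervals holds the share over all genes, which is a description and not a test. Merging overlapping peaks gave 236 kinesin sites, of which 69 (29.2%, beside 25.2% over all genic sites) were found in all 3 cell types. Neurons and Astrocytes without NSCs shared 26 sites (11.0%, 7.32 to 15.7, beside 7.63%), NSCs and Neurons 15 (6.36%, beside 7.54%), and NSCs and Astrocytes 9 (3.81%, beside 5.03%). Sites in 1 cell type only numbered 37 in NSCs, 47 in Neurons and 33 in Astrocytes, or 15.7%, 19.9% and 14.0%, where the shares over all genic sites were 16.8%, 22.5% and 15.4%. Of these sites, 24, 20 and 18 overlapped a region of any comparison list, so a peak in 1 cell type only was often not listed as a difference. Sites in all 3 cell types lay in 21 genes. Kif1a, Kif23 and Kif3a had a peak in every cell type but no site common to all 3.

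**Figure D4:**
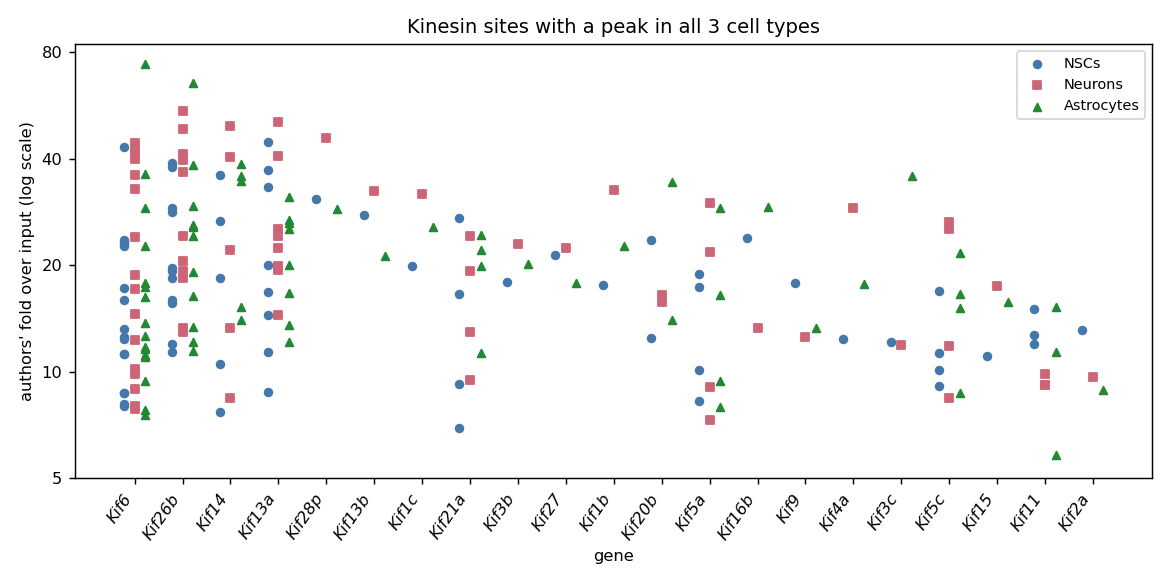
Authors' fold over input (y axis, log scale) at the 69 kinesin sites with a peak in all 3 cell types, by gene (x axis), with 1 marker per site and cell type. Kif6 reaches 74.2 and Kif26b 65.4 in Astrocytes, and the markers of 21 genes are drawn.

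The comparison lists come in pairs marked pos and neg, and no label or header says how they were made. The list marked pos was read as higher in the first named cell type and the list marked neg as higher in the second. Under this reading, of all regions with a gene name, 61.1% to 68.0% per list overlapped a peak over input of only the cell type read as higher, and 1 to 4 regions per list one of only the other.

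Between Neurons and NSCs, 45 regions at 19 kinesin genes were listed as higher in Neurons and 28 at 14 genes as higher in NSCs. Over all named protein-coding genes, 26.8% had a region higher in Neurons and 23.8% one higher in NSCs, and the kinesin genes of the reference stood at 46.3% and 34.1%. These shares rise with gene length as the input-based ones do, and weighted to the kinesin lengths they were 41.8% and 37.3% over all genes. At 20 to 50 kb, 4 of 14 kinesin genes had a region in each direction, beside 28.8% higher in Neurons and 25.9% higher in NSCs. At 50 to 100 kb these were 6 and 4 of 12, beside 48.7% and 42.4%, and at 100 to 200 kb 6 and 3 of 6, beside 68.5% and 62.1%. Of the kinesin regions, 61.6% (49.5 to 72.8) were higher in Neurons, beside 54.8% of all regions with a gene name. Kif13a, Kif14, Kif21a, Kif26b, Kif3a, Kif5a, Kif5c and Kif6 had regions in both directions. A further 11 genes had regions higher in Neurons only, which were Kif13b, Kif15, Kif18a, Kif1a, Kif1b, Kif22, Kif27, Kif2a, Kif3c, Kif4a and Kif7. The 6 with regions higher in NSCs only were Kif11, Kif16b, Kif21b, Kif24, Kif28p and Kif2c. Of the 19 genes, 9 had 1 region higher in Neurons, and of the 14, 8 had 1 higher in NSCs. Shares over all genes in 1 or both directions were not taken, so these counts are not read as particular to kinesins. After Kif5c, the largest folds of Neurons over NSCs were in Kif26b (17.3) and Kif13b (16.0), and of NSCs over Neurons in Kif26b (14.8), Kif16b (13.6) and Kif21b (12.6), all in the authors' deposited tables.

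Between Astrocytes and NSCs the kinesin regions were nearly even, with 28 at 14 genes higher in Astrocytes and 30 at 15 genes higher in NSCs. The background was 21.4% and 25.6% of all genes, and kinesin genes stood at 34.1% and 36.6%. Weighted to the kinesin lengths, the background was 33.8% and 40.1%. At 20 to 50 kb, 4 of 14 had a region in each direction, beside 22.4% and 27.7% of all genes of that length. At 50 to 100 kb these were 3 and 3 of 12, beside 38.2% and 46.0%, and at 100 to 200 kb 5 and 5 of 6, beside 56.3% and 66.4%. Regions higher in Astrocytes made up 48.3% (35.0 to 61.8), beside 42.0% over all regions with a gene name. Genes with regions in both directions numbered 7, with 7 more higher in Astrocytes only and 8 higher in NSCs only. The like shares over all genes were not taken. Kif5b, Kif9, Kif13b, Kif23, Kif24, Kif28p and Kif3c were higher in Astrocytes only. Kif11, Kif16b, Kif21b, Kif27, Kif2a, Kif2c, Kif3a and Kif4a were higher in NSCs only. The largest folds of Astrocytes over NSCs were 15.3 in Kif26b, 14.6 in Kif1b and 14.6 in Kif5b, and of NSCs over Astrocytes 19.9 in Kif27, 19.9 in Kif5c and 16.1 in Kif1b, in the authors' deposited tables.

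Between Astrocytes and Neurons, 19 regions at 10 kinesin genes were higher in Astrocytes and 36 at 16 genes were higher in Neurons. Over all genes 17.6% and 29.6% had such a region, and kinesin genes stood at 24.4% and 39.0%. Weighted to the kinesin lengths, the shares over all genes were 28.0% and 45.4%. At 20 to 50 kb, 1 of 14 kinesin genes had a region in each direction, beside 17.8% and 32.7% of all genes of that length. At 50 to 100 kb these were 4 and 6 of 12, beside 31.5% and 53.2%, and at 100 to 200 kb 3 and 6 of 6, beside 46.4% and 72.7%. The share higher in Astrocytes was 34.5% (22.2 to 48.6) for kinesins and 29.8% over all regions with a gene name, and regions higher in Neurons were the majority in both. Kif16b, Kif5b and Kif9 were higher in Astrocytes only, 9 genes were higher in Neurons only and 7 were in both lists. Here too the like shares over all genes were not taken. The largest folds of Astrocytes over Neurons were 14.3 in Kif26b, 11.75 in Kif5b and 11.7 in Kif16b, and of Neurons over Astrocytes 14.3 in Kif21a, 13.0 in Kif2a and 13.0 in Kif5c, in the authors' deposited tables. In all 3 comparisons the interval of the kinesin share held the share over all genes, which is a description and not a test. The intervals treat regions as independent, although Kif6 and Kif26b held 25.0% to 39.3% of the kinesin regions per list. The 3 comparisons use the same 3 libraries in pairs, so their lists are not independent of each other. Kif19, Kif1c, Kif2b and Kif3b had no region in any of the 6 comparison lists.

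**Figure D5:**
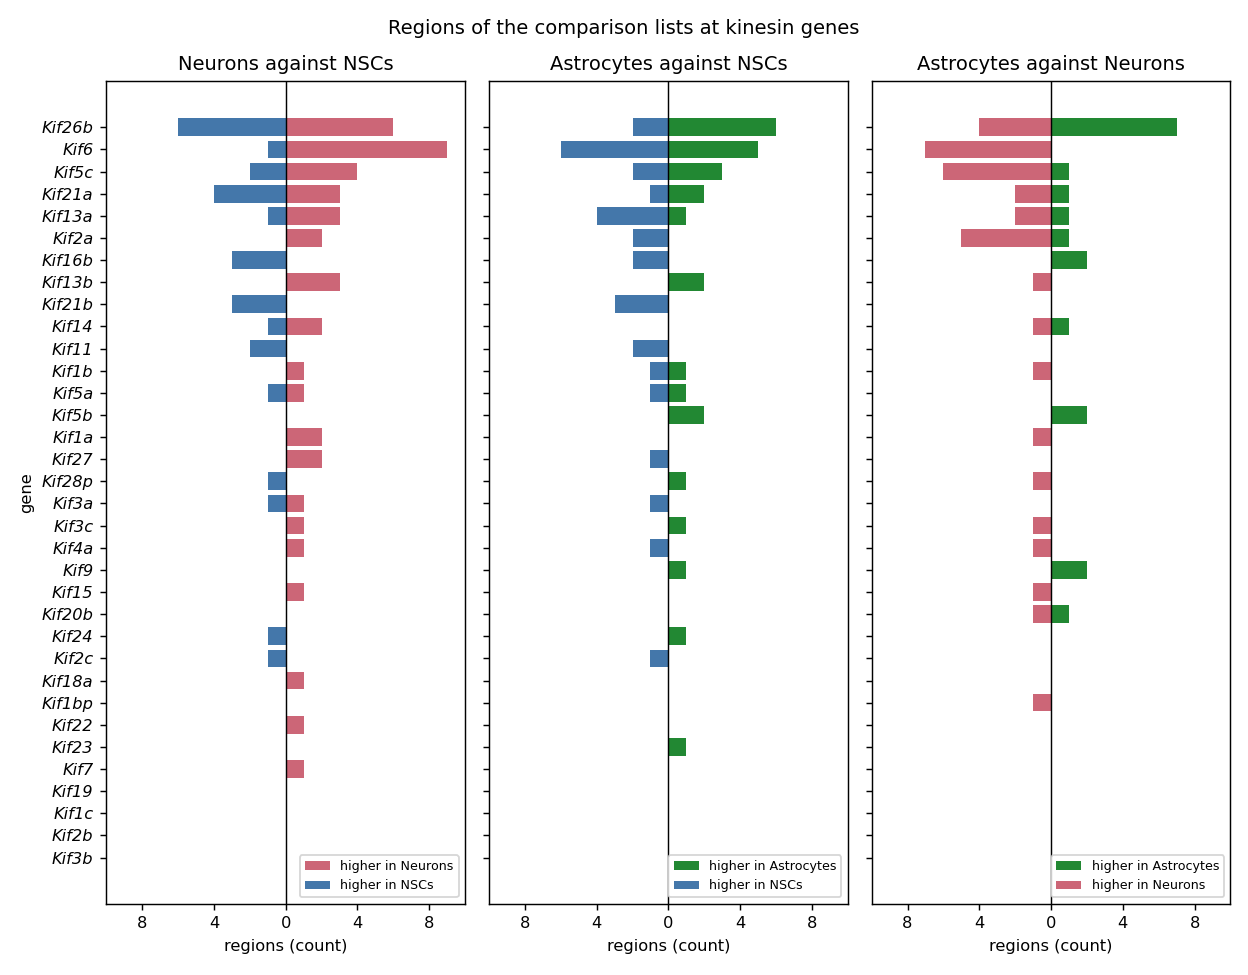
Number of regions (x axis, count) listed at each kinesin gene (y axis) in the 3 comparisons of cell types, drawn to the right for the first named cell type and to the left for the second, with 1 library per cell type. Kif6 has 9 regions higher in Neurons against 1 in NSCs and 7 higher in Neurons against none in Astrocytes, and Kif21b is drawn on the NSC side only.

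A region listed as different between cell types was not always a peak over input. Of the 45 kinesin regions higher in Neurons than in NSCs, 26 overlapped a peak of Neurons only (57.8%, beside 65.4% over all regions with a gene name), 7 a peak of both cell types (15.6%, beside 15.9%) and 12 a peak of neither (26.7%, beside 18.7%). Of the 28 higher in NSCs than in Neurons, 20 overlapped a peak of NSCs only (71.4%, beside 61.1%), 2 a peak of both and 6 a peak of neither (21.4%, beside 31.2%). For Astrocytes over NSCs these numbers were 21, 3 and 4 of 28, with 14.3% in neither, beside 23.1%. For NSCs over Astrocytes they were 22, 2 and 6 of 30, with 20.0% in neither, beside 27.8%. For Astrocytes over Neurons they were 14, 3 and 2 of 19, with 10.5% in neither, beside 25.5%. For Neurons over Astrocytes they were 16, 8 and 12 of 36, or 44.4%, 22.2% and 33.3%, beside 61.5%, 11.3% and 27.2%. The kinesin share in neither was above that over all regions in both lists higher in Neurons and below it in the other 4. It rests on 2 to 12 regions per list, and both lists higher in Neurons share the Neuron library. Some regions without a peak stand in both, such as chr13:53371516-53372013 at Kif14 and chr7:132176138-132176384 at Kif21a. No Neuron trait is read from these shares. Kif22 and Kif7 are known only from regions with a peak of neither.

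Genes that work with kinesins were counted as a list of 40, including the kinesin light chains, cargo adaptors, the dynein and dynactin subunits of the opposite motor, and microtubule-associated proteins. The list also holds Kifc1, Kifc2, Kifc3 and Cenpe, which are kinesin motors whose symbols fall outside the rule, and Kifbp, which is the Kif1bp counted above. A peak was listed at 25 of the 40 in NSCs (62.5%), 27 in Neurons (67.5%) and 25 in Astrocytes (62.5%), where the shares over all genes, weighted to the lengths of the 40, were 59.2%, 62.6% and 59.4%. The largest folds were in Klc1, a light chain of conventional kinesin (80.0 in NSCs, 79.0 in Neurons and 106 in Astrocytes), and in Dync1i1, an intermediate chain of dynein (51.0, 91.8 and 86.4). Dync2h1 followed in NSCs (45.1), Dctn6 in Neurons (51.1) and Map7, which recruits Kif5 motors to microtubules, in Astrocytes (52.8). In the comparison of Neurons with NSCs, 14 of the 40 had a region higher in Neurons (35.0%, beside 26.8% of all genes and 37.4% weighted to length) and 14 one higher in NSCs (35.0%, beside 23.8% and 33.3%). A region higher in Astrocytes than in NSCs was listed at 16 (40.0%, beside 21.4% and 30.2%) and the reverse at 14 (35.0%, beside 25.6% and 35.8%). A region higher in Astrocytes than in Neurons was listed at 7 (17.5%, beside 17.6% and 25.1%) and the reverse at 16 (40.0%, beside 29.6% and 40.6%). The largest of these folds in the authors' deposited tables were 18.5 in Madd for Neurons over NSCs, 14.1 in Dync1i1 for NSCs over Neurons, 19.9 in Kifap3 for Astrocytes over NSCs and 15.6 in Dync1i1 for NSCs over Astrocytes. Between Astrocytes and Neurons the authors' deposited tables give 16.9 in Hook3 for Astrocytes, and, for Neurons, 14.3 in both Kifc1 and Kifap3, the latter a link between the Kif3 motors and their cargo.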

How the data were processed

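Reads were aligned with BWA, per the submitters' processing notes, which give no version. For the genome build, the annotation, the filters and the peak caller's version: not given in the sources used here. Per the file headers, the deposited mapping table holds read counts and, as a percent, mapping rates of each library, and 1 row without a sample was not used, nor was its column of uniquely mapped reads in the same chromosome. The authors' peak lists set each immunoprecipitated library against an input, and the Astrocyte input is not among the samples used here. The 6 comparison lists set 1 immunoprecipitated library against another, and their direction is a reading of their marks pos and neg. Per the file headers, the deposited score is 10 times the −log10 p, and the fold is named a fold enrichment. How the fold was computed is not given there.

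Apart from 6 blank lines, every deposited region was read. A gene counted where its symbol stood in a gene class of a region. Peaks of separate lists were shared at an overlap of 1 bp or more, and overlapping peaks were merged into sites. Gene lengths and promoters came from RefSeq's GRCr8 annotation, of which no coordinates were matched to peaks. The density of a single gene was taken over the reference length or, where longer, the span of the peaks of that gene. This choice was made after seeing that the Kif5c peaks spanned more than its reference length. The densities of the transport and division lists were taken over summed reference lengths instead. The overlap code was tested on simulated data. The alternatives were a stricter score (87.4, or 62.4 in comparison lists), a stricter fold (12.1 or 9.53), gene bodies only, regions naming 1 gene, and 50% reciprocal overlap. The stricter scores and folds are medians over all regions of the 3 input-based lists or of the 6 comparison lists. The transport list without Kif6 and Kif26b was added after seeing the data. To set a list of genes beside all genes of like length, the share over all genes in each of 5 length classes was averaged with the list's number of genes per class as weights. Python 3.11.15, SciPy 1.17.1 and matplotlib 3.10.9 were used.

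Every member was counted. Values were given for members with the 5 largest folds, most peaks or most peaks per 100 kb per list, a promoter or exon peak, the 3 largest folds or most regions per comparison list, or 3 or more regions in 1 direction only, and for the 5 shared sites with the largest lowest fold. Other values describe members by subfamily and were chosen after they were seen. The members, the partner list and the role lists were chosen with earlier results of these data known.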

Additional observations from a re-analysis of the deposited data

How the results depend on the processing

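Of 60 alternatives, 45 left the value within its limits and 15 moved it, where the limit was 1.5 times for a count and the exact 95% interval of the reported value for a share, and all 15 were a stricter score or fold. With the stricter score, kinesin peaks numbered 66 in NSCs, 87 in Neurons and 84 in Astrocytes, and with the stricter fold 70, 79 and 83. Kinesin genes with a region higher in Neurons than in NSCs numbered 11 with the stricter score, and those higher in NSCs than in Neurons 9 with the stricter score and 8 with the stricter fold. Genes higher in Astrocytes than in NSCs numbered 8 with the stricter fold. Genes higher in Astrocytes than in Neurons numbered 6 and 3, and those higher in Neurons than in Astrocytes 8 and 10, with the stricter score and fold. The share of NSC kinesin peaks found in both other cell types was 68.2% with the stricter score. The stricter scores and folds are medians of these same lists, so lower counts were built in, and the tally of alternatives is not a measure of robustness. Fewer regions pass them in every list. Over all genes, the share with a region under these same limits was 17.2% for Neurons over NSCs, 13.4% and 14.6% for NSCs over Neurons, 13.4% for Astrocytes over NSCs, 9.50% and 11.3% for Astrocytes over Neurons, and 18.9% and 18.4% for Neurons over Astrocytes. Counting gene bodies only, regions naming 1 gene only, or 50% reciprocal overlap moved none of the values they were run on. No paired analysis was possible because each cell type had 1 library. The lists hold no read counts per region, so depth limits which regions reached the authors' score, and a missing peak does not show that a region was not enriched.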
